A study of Mus musculus with 4 samples.

Results

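The transforming growth factor-beta (TGF-beta) system was followed through 10 genes in single-nucleus RNA counts from mouse brain. The members were chosen by gene symbol: the ligands *Tgfb1*, *Tgfb2* and *Tgfb3*, the receptors *Tgfbr1* and *Tgfbr2*, the coreceptor *Tgfbr3*, the transducer *Smad3*, the latent-complex protein *Nrros* and the integrin subunits *Itgav* and *Itgb8*. All 10 were found among the 31053 gene rows. The brains came from untreated 2-month-old female C57/BL6 mice, perfused before nuclei were isolated without detergent and cleared of myelin debris. There were 2 WT libraries (WT1, WT2) and 2 *Csf1r*+/- libraries (HET1, HET2), the latter heterozygous for *Csf1r*, the receptor for colony-stimulating factor 1, in every cell. The other mice of the study were not used here, and nothing in the labels limits the loss of the allele to microglia.

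TGF-beta ligands are made as latent complexes and held inactive until they are released. In the brain, microglia display latent TGF-beta1 on the protein encoded by *Nrros*, and the integrin formed by the products of *Itgav* and *Itgb8* on neighboring cells releases it. The active ligand brings together the type II receptor (*Tgfbr2*) and the type I receptor (*Tgfbr1*), which phosphorylates SMAD2 and SMAD3. This signal is known for keeping microglia in their homeostatic state.

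After nuclei with 500 to 50000 UMIs (unique molecular identifiers, each marking 1 captured transcript), over 200 genes and under 5% mitochondrial UMIs were kept, 52132 nuclei remained, with 9589 to 16114 per library and a median of 4636 to 7454 UMIs. Levels are given as CPM, the UMIs of a gene divided by all UMIs of the class in that library, on the usual scale. Libraries shared 33 to 68 cell barcodes per pair, at most 0.465% of the smaller library. Classes were set by counting marker genes in each nucleus, and 5 classes had at least 10 nuclei in every library: 751 microglia, 2547 oligodendrocytes, 445 endothelial cells, 25141 excitatory and 4469 inhibitory neurons. The median nucleus carried 10 of 15 markers of its own class in microglia, 8 of 12 in oligodendrocytes and 10 of 14 in endothelial cells, and no member is a marker. Another 17272 nuclei met no rule, and 1335 were left out as mixed. Mixed nuclei had enough markers of a glial or vascular class but did not stand clear of the other classes, or also met a neuron rule. *Csf1r* in microglia was at 521 and 450 CPM for WT, and at 354 and 407 CPM for HET and so lower in both HET libraries (log2 fold change -0.39, SE 0.21, edgeR unadjusted p = 0.076, adjusted p = 0.61). In neurons, where *Csf1r* was low, it was higher in both HET libraries, with a mean of 0.76 CPM for WT against 4.18 CPM for HET in excitatory neurons (log2 fold change 2.49) and 1.38 against 4.47 CPM in inhibitory neurons (1.71). The sources used here do not say which part of the gene the HET allele lacks, so these 3′ counts are a limited check of the labels. Pan-neuronal transcripts were also present in the non-neuronal classes, and their level gave an estimate of free RNA in microglia of 53.5% and 60.6% of UMIs in WT and 37.5% and 51.3% in HET. A nucleus caught together with a neuron would also add to this estimate, and the 2 sources were not told apart. Without high Scrublet doublet scores, 175 of 197, 163 of 204, 176 of 193 and 141 of 157 microglia remained in WT1, WT2, HET1 and HET2.

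All 10 genes are protein coding, and 8 had a promoter in the RefSeq table (GRCm38.p6). The 4 below belong to the members that stood higher in microglia of both HET libraries, as did 21.7% of all genes. Each shows the 250 bases before the annotated start, 5′ to 3′. Capitals mark GAGGAA, the core of the box bound by the myeloid factor PU.1, searched on both strands.
Tgfb1 (chr7:25686752-25687001, plus strand): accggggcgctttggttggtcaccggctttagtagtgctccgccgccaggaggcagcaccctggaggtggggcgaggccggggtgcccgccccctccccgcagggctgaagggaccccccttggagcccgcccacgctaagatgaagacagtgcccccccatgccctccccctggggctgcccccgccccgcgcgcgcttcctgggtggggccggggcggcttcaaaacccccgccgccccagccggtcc
Tgfbr1 (chr4:47352972-47353221, plus strand): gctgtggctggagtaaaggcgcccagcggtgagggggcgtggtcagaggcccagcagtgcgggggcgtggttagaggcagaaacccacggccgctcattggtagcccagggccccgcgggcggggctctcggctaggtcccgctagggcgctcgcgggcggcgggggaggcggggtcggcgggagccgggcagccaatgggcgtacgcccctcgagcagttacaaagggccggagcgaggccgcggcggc
Tgfbr2 (chr9:116175364-116175613, minus strand): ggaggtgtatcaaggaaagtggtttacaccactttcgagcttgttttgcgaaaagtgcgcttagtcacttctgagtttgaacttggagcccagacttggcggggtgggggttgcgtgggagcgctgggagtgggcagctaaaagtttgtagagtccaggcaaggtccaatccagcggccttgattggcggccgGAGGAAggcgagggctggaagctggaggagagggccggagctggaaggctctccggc
Nrros (chr16:32165595-32165844, minus strand): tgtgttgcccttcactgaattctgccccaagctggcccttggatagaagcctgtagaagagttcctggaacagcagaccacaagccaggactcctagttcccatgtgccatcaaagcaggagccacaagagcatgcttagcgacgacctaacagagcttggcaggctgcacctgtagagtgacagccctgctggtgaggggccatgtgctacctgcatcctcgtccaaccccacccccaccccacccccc
Of these 4 promoters, the one of *Tgfbr2* held the box. The window before a second annotated start of *Tgfbr1* (chr4:47385966-47386215, not printed) also held it. Among the 9 promoters of members it occurred in 4, beside 23.3% of 32851 promoters of this length. A match is a description of letters in this window.

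Each ligand had its own place. By level, *Tgfb1* was highest in microglia and then endothelial cells, *Tgfb2* was highest in endothelial cells, and *Tgfb3* was low in every class. Between their highest and next class 7 of the 10 members passed an adjusted p under 0.05 (edgeR, library as a block). Each pair was chosen by the same levels that were then tested, which favors a difference. The shares of all genes that follow are for fixed pairs in either direction, so they are not a like background. Many genes differ between classes: 45% of all genes passed between microglia and endothelial cells, 45.3% between endothelial cells and inhibitory neurons, 29.3% between microglia and oligodendrocytes, 29.6% between microglia and excitatory neurons, 32.6% between oligodendrocytes and inhibitory neurons and 35.6% between the neuron classes. The fit scales classes by TMM, so its differences need not equal ratios of the CPM.

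*Tgfb1* (chr7:25687002-25705077, plus strand) was at 102, 68.8, 117 and 115 CPM in microglia of WT1, WT2, HET1 and HET2. In endothelial cells it was at 17.7, 58.0, 27.0 and 61.2 CPM in the same order. Microglia stood above endothelial cells in every library, with a log2 difference of 1.79 (SE 0.49, edgeR adjusted p = 0.0021). This call was lost without WT1 (log2 difference 1.18, adjusted p = 0.078) and without HET1 (0.94, adjusted p = 0.17). Microglia held 0.452% of all UMIs and 43.2% of the UMIs of *Tgfb1*. Excitatory and inhibitory neurons had a mean of 0.22 and 0.32 CPM.

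*Tgfb2* (chr1:186622792-186705989, minus strand) was at 235, 168, 202 and 136 CPM in endothelial cells of WT1, WT2, HET1 and HET2. Every other tested class had a mean under 10 CPM in the 4 libraries. The 83 oligodendrocyte precursor nuclei, too few to test, held 13 *Tgfb2* UMIs (40.7 CPM, Poisson interval 21.6 to 69.5). Endothelial cells exceeded inhibitory neurons, the next class, by 4.06 on the log2 scale (SE 0.24, edgeR adjusted p = 2.6e-23). Inhibitory neurons in turn exceeded excitatory neurons by 0.44 (SE 0.13, edgeR adjusted p = 0.0059).

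*Tgfb3* (chr12:86056745-86079041, minus strand) had its highest mean in oligodendrocytes, at 10.5 CPM ± 3.98 (SD, n = 4). Inhibitory neurons followed at 8.20 CPM ± 0.72 (SD, n = 4). These neighbors did not differ beyond their spread (log2 difference 0.40, SE 0.30, edgeR adjusted p = 0.33). The counts were small, with 10 UMIs in microglia and 4 in endothelial cells over all libraries.

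**Figure D1:**
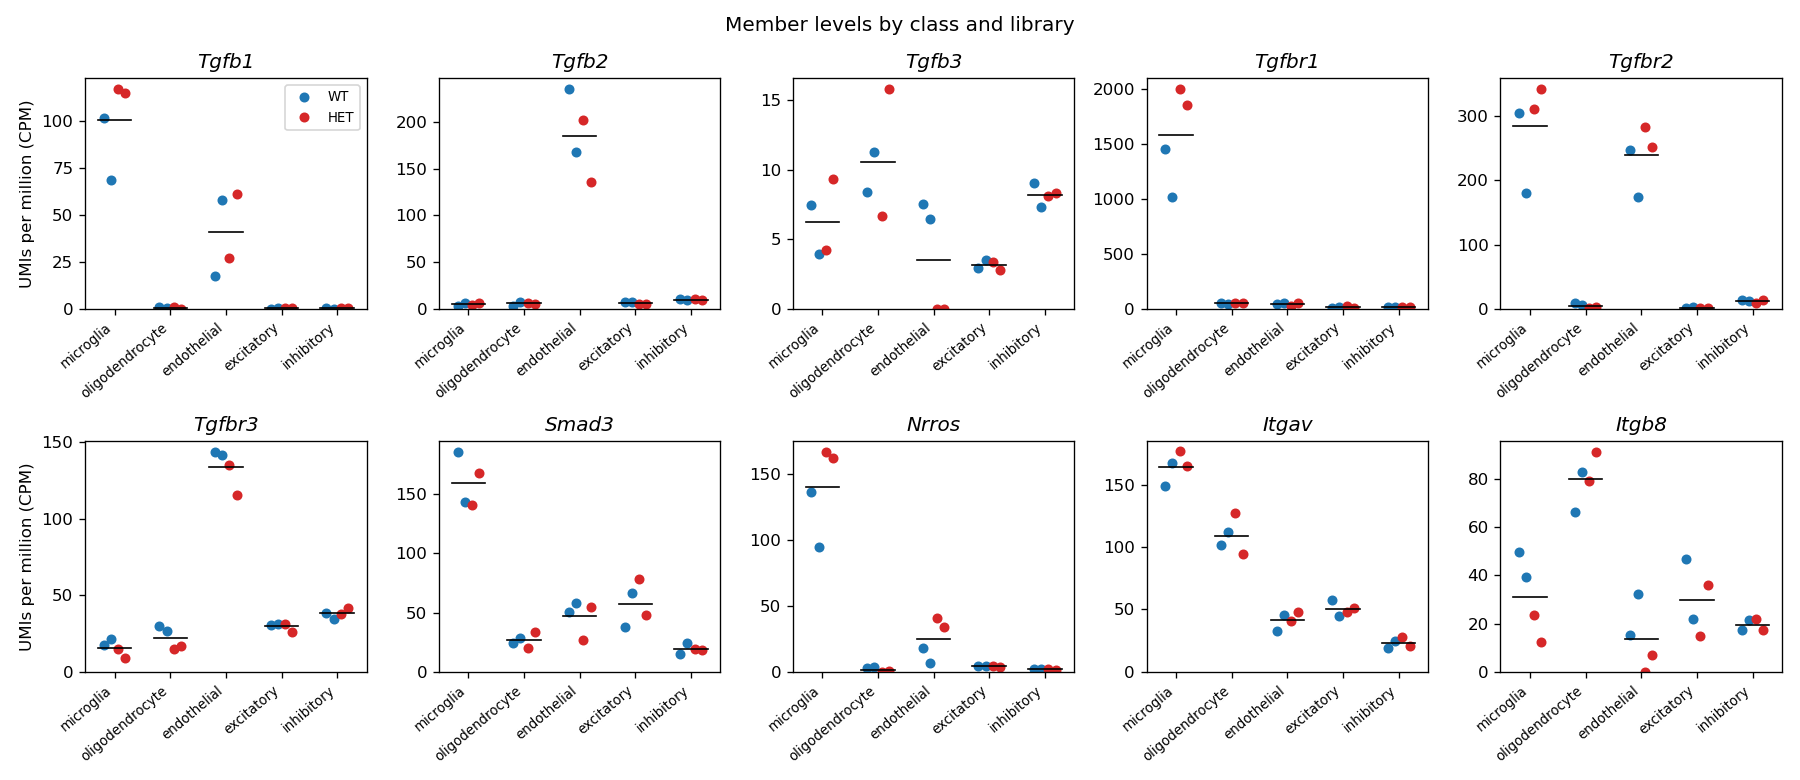
Level of each member in CPM (linear axes from 0, scaled per gene) in the 5 tested classes. Each point is 1 library (blue WT, red HET) and the line is the mean of 4. Tgfbr1 in microglia lies between 1012 and 1993 CPM, and Tgfb2 in endothelial cells between 136 and 235 CPM.

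Both signaling receptors were high in microglia. *Tgfbr1* (chr4:47353222-47414931, plus strand) was at 1448 and 1012 CPM for WT, and at 1993 and 1848 CPM for HET microglia. Oligodendrocytes, the next class, had 50.1 CPM ± 4.78 (SD, n = 4), a log2 difference of 4.69 (SE 0.22, edgeR adjusted p = 3.4e-28). The order below microglia, oligodendrocytes then endothelial cells then neurons, was not separated at any step.

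*Tgfbr2* (chr9:116084293-116175360, minus strand) was at 305, 181, 311 and 342 CPM in microglia of WT1, WT2, HET1 and HET2. In endothelial cells it was at 247, 174, 283 and 251 CPM in the same order. The log2 difference between these classes was 0.58 (SE 0.25, edgeR adjusted p = 0.054), so they were not separated in the main fit. Over the other processing settings it ran from 0.26 to 1.01, and whether it was called changed with the setting. Endothelial cells exceeded inhibitory neurons by 3.82 (SE 0.26, edgeR adjusted p = 5.0e-20).

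*Tgfbr3* (chr5:107106570-107289629, minus strand) encodes betaglycan, which presents ligand to the type II receptor. Of the tested classes it was highest in endothelial cells, at 144, 142, 135 and 116 CPM in WT1, WT2, HET1 and HET2. Inhibitory neurons had 38.2 CPM ± 3.01 (SD, n = 4), and the log2 difference was 1.42 (SE 0.22, edgeR adjusted p = 1.2e-07). Microglia were the lowest of the 5 classes, at 15.8 CPM ± 5.13 (SD, n = 4). That level rests on 28 UMIs, and with the free-RNA estimate subtracted too few were left to test.

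*Smad3* (chr9:63646767-63757994, minus strand), the transducer, was at 186, 143, 141 and 168 CPM in microglia of WT1, WT2, HET1 and HET2. Excitatory neurons came next, at 37.7, 66.2, 78.3 and 47.8 CPM in the same order. The log2 difference was 0.69 (SE 0.21, edgeR adjusted p = 0.0084). It fell to 0.47 without WT1 (adjusted p = 0.12) and without HET2 (adjusted p = 0.11), where it was no longer called.

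*Nrros* (chr16:32142785-32165594, minus strand) was at 136, 94.3, 166 and 162 CPM in microglia of WT1, WT2, HET1 and HET2. Endothelial cells had 24.7 CPM ± 15.5 (SD, n = 4) and neurons had under 5 CPM. Microglia exceeded endothelial cells by 2.81 on the log2 scale (SE 0.40, edgeR adjusted p = 2.5e-08). The 17 border macrophage nuclei held 12 *Nrros* UMIs, a level of 179 CPM (95% Poisson interval 92.5 to 313, counting error only).

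The 2 integrin subunits differed in their places. *Itgav* (chr2:83724397-83806916, plus strand) was at 164 CPM ± 11.6 (SD, n = 4) in microglia and 109 CPM ± 14.1 in oligodendrocytes, and the fit did not separate them (log2 difference 0.18, SE 0.19, edgeR adjusted p = 0.53). Of the tested classes, *Itgb8* (chr12:119158022-119238802, minus strand) was highest in oligodendrocytes, at 66.4, 82.7, 79.1 and 91.1 CPM in WT1, WT2, HET1 and HET2. That was 1.89 on the log2 scale above microglia (SE 0.35, edgeR adjusted p = 1.1e-05). The 83 oligodendrocyte precursor nuclei held 57 *Itgav* UMIs (178 CPM, 95% Poisson interval 135 to 231) and 37 *Itgb8* UMIs (116 CPM, interval 81.5 to 160). The 17 border macrophage nuclei also held 17 *Tgfbr2* UMIs (253 CPM, interval 148 to 406), and the 22 mural nuclei 7 *Tgfbr3* UMIs (158 CPM, interval 63.6 to 326). The 46 astrocyte nuclei held 18 *Itgb8* UMIs (interval 53.3 to 142 CPM). None of these 4 classes had enough nuclei in every library for a test.

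Counted over all nuclei, most UMIs of several members came from neurons. Excitatory neurons held 62.3% of all UMIs, 75.0% of those of *Smad3*, 67.4% of *Itgav*, 63.3% of *Itgb8*, 59.4% of *Nrros* and 54.2% of *Tgfbr3*. Microglia, with 0.452% of all UMIs, held 25.6% of those of *Tgfbr1*, 20.3% of *Tgfbr2* and 13.9% of *Nrros*. Nuclei left out as mixed, with 3.34% of all UMIs, held 14.9%, 15.3% and 8.43% of these. A share joins the number of nuclei captured, the RNA in each and the level of the gene. Microglia were 1.44% of nuclei with a median of 1392 UMIs, and excitatory neurons 48.2% with a median of 7835.

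Within neurons, the members varied between 44 clusters, which were made without the members and are described without a test. *Tgfb2* ranged from 1.78 to 77.4 CPM around a median of 7.24. Its highest cluster, N32, had 65.2, 91.1, 63.2 and 95.4 CPM in WT1, WT2, HET1 and HET2. In the dentate granule neuron-like cluster N34 *Tgfb2* was at 28.6, 48.4, 43.2 and 54.4 CPM in the same order. *Tgfb3* was highest in N45, a cluster of 88 nuclei with 19 of its UMIs, at 32.7, 48.3, 28.5 and 30.2 CPM.

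The same N34 cluster had the highest *Smad3* level, at 142, 167, 184 and 175 CPM in WT1, WT2, HET1 and HET2. *Tgfbr2* was highest in N41, led by *Six3*, *Isl1* and *Fign*, and in the Pvalb interneuron-like cluster N11, at 34.9 and 29.9 CPM against a median of 2.00 over clusters. *Tgfbr3* reached 143 CPM in N40, led by *Il16*, *Mndal* and *Cd109*. The median of *Tgfbr3* over clusters was 30.3 CPM.

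*Itgav* reached 150 CPM in N42, led by *Vmn1r209*, *Cdhr1* and *Eomes*, and 128 CPM in N10, led by *Lgr6*, *Frmd7* and *Dnah11*. *Itgb8* reached 142 CPM in the Lamp5 or Reln interneuron-like cluster N35. That value was uneven, with 45.5 and 200 CPM for WT, and 237 and 20.6 CPM for HET. *Tgfbr1* reached 58.8 CPM in N42 and 57.9 CPM in N34. *Nrros*, at its highest in the layer 4 neuron-like cluster N05, did not exceed 11.2 CPM and *Tgfb1* did not exceed 1.64 CPM in any of the 44 clusters.

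**Figure D2:**
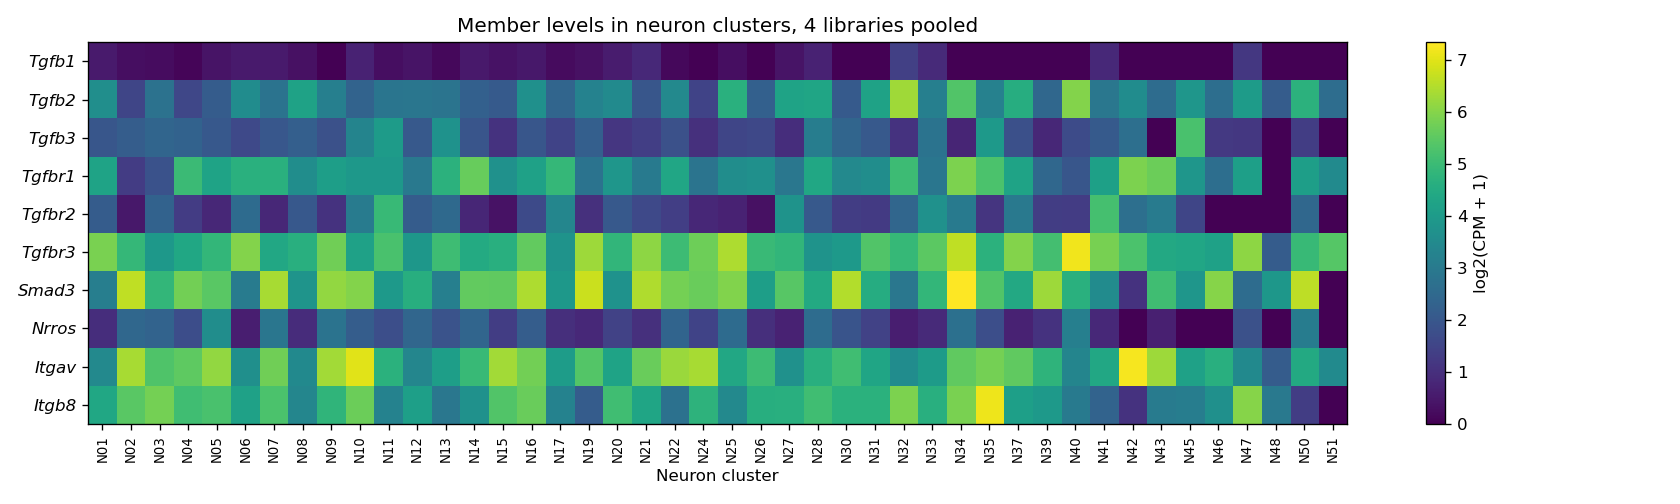
Level of each member in 44 neuron clusters, as log2(CPM + 1) of the UMIs pooled over 4 libraries. Rows are members, columns are clusters, and yellow is high. Tgfb2 is brightest in N32, Smad3 in N34, Tgfbr3 in N40 and Tgfb1 is dark throughout.

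Likeness was measured over 49 points (5 classes and 44 clusters). Their levels share the same 4 libraries, and the neuron classes and clusters share nuclei. *Tgfb1* was most like *Ecscr* (Pearson r = 0.98). Among these points it exceeded 1.64 CPM only in microglia and endothelial cells, so those classes largely set that r. *Smad3* was most like *Ptk2b* (0.84), *Tgfbr2* like *Tcirg1* (0.85), *Itgav* like *Tacc1* (0.79) and *Nrros* like *Inpp5d* (0.81), a microglia marker used in the class rule. The closest genes to the others were *Ifngr1* for *Tgfbr1* (0.73), *Wdr5b* for *Itgb8* (0.72), *Nr3c2* for *Tgfbr3* (0.71), *Ppp1r13b* for *Tgfb2* (0.71) and *Tm6sf1* for *Tgfb3* (0.69), among 16464 genes.

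The genotype contrast asked whether loss of 1 *Csf1r* allele went with a different level of these genes. The study called a gene at an unadjusted p below 0.01 if it was detected in 10% or more of the WT or of the HET nuclei. No member was called in this way in any of the 5 classes, and none had an adjusted p under 0.05 (edgeR quasi-likelihood test, 2 against 2 libraries). At an unadjusted p under 0.05 there were 2 members in microglia, 3 in oligodendrocytes and 1 in excitatory neurons. There were 0 in endothelial cells and 0 in inhibitory neurons. The shares of all genes at that level were 8.88% in microglia, 6.57% in oligodendrocytes, 8.94% in endothelial cells, 2.72% in excitatory and 2.76% in inhibitory neurons, and 0% had an adjusted p under 0.05. The study's threshold was passed by 4.44% of all genes in microglia, 3.34% in oligodendrocytes, 4.64% in endothelial cells, 0.355% in excitatory and 0.38% in inhibitory neurons. With 2 libraries per group an exact permutation test cannot go below p = 0.333. Each library is 1 mouse, so these p-values measure the spread between single mice, together with any spread from preparing each library.

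In microglia 4 members were higher in both HET libraries than in both WT libraries (*Tgfb1*, *Tgfbr1*, *Tgfbr2*, *Nrros*) and 2 were lower (*Tgfbr3*, *Itgb8*), of 9 tested. Such separation was seen for 21.7% of all genes in the first direction and 17.7% in the second, 39.3% together. From the levels given above, *Tgfbr1* had a log2 fold change of 0.60 (SE 0.22, edgeR unadjusted p = 0.014, adjusted p = 0.42). *Nrros* was at 0.49 (SE 0.25), *Tgfb1* at 0.43 (SE 0.28) and *Tgfbr2* at 0.39 (SE 0.25), with edgeR adjusted p of 0.60, 0.72 and 0.70. *Itgb8* was at 49.6 and 39.3 CPM for WT, and at 23.4 and 12.4 CPM for HET, a log2 fold change of -1.25 (SE 0.45, edgeR unadjusted p = 0.012, adjusted p = 0.40). *Tgfbr3*, with 28 UMIs in all, was at 17.4 and 21.6 CPM for WT, and at 14.9 and 9.32 CPM for HET. Its log2 fold change was -0.67 (SE 0.59, edgeR unadjusted p = 0.27, adjusted p = 0.81), little more than its SE.

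The free-RNA estimate was smaller in both HET libraries, although WT1 (53.5%) and HET2 (51.3%) were close, with *Tgfbr1* at 1448 and 1848 CPM. Beyond the subtraction, its part in these values was not tested. With that estimate subtracted, the log2 fold change of *Tgfbr1* was 0.27 (SE 0.19). *Tgfb1* was then at 0.069, *Tgfbr2* at 0.066 and *Nrros* at 0.13. *Tgfbr3* kept under 10 UMIs and gave no value. *Itgb8*, which is low in microglia, was at -1.77 (SE 1.08). The estimate exceeded the 4 *Itgb8* UMIs of HET2 and left none there, so the size of that value is not read. Without WT1, *Tgfbr1* was at 0.92 (SE 0.22) and *Tgfbr2* at 0.84 (SE 0.27). Without WT2, which had the largest free-RNA estimate, *Tgfbr1* was at 0.33 (SE 0.22) and *Tgfbr2* at 0.020 (SE 0.26). Each of these fits leaves 1 WT library, so only the fold changes are read.

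**Figure D3:**
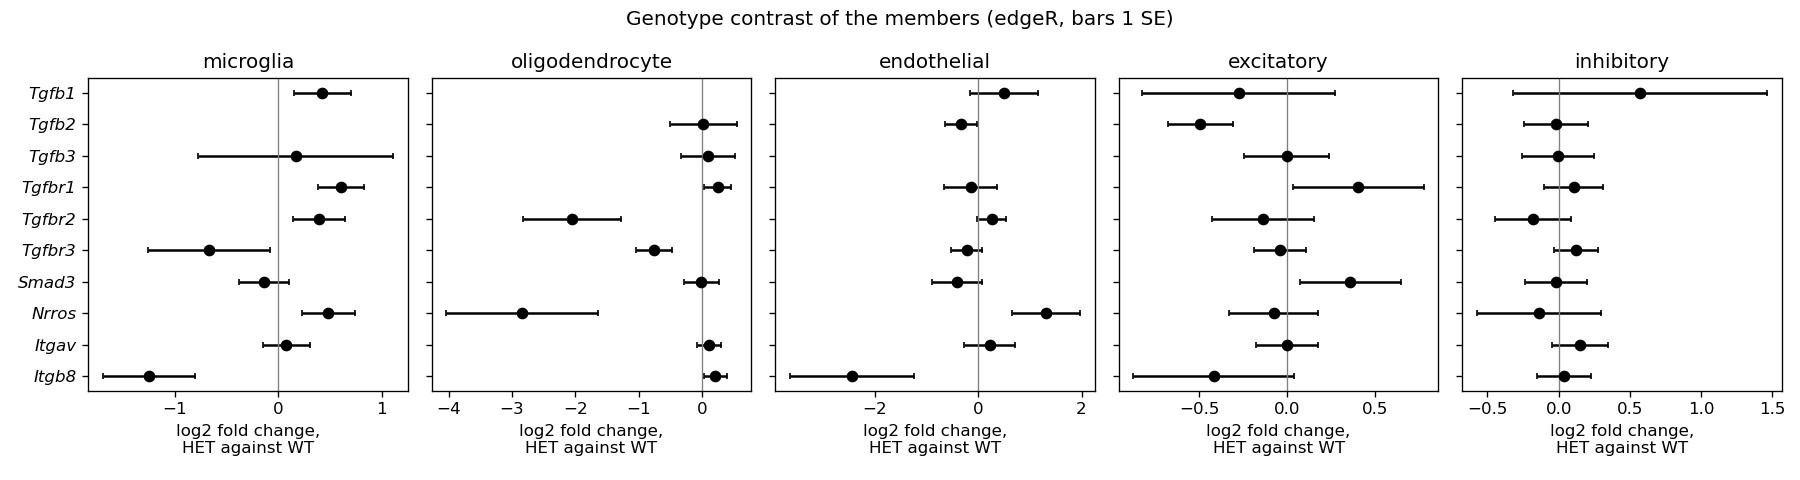
Log2 fold change of each member, HET against WT, by class, with bars of 1 SE derived from the edgeR test over 2 WT and 2 HET libraries. Members without a point had under 10 UMIs. Tgfbr1 in microglia lies at 0.60 and Itgb8 at -1.25, and no member passed the study's threshold.

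**Figure D4:**
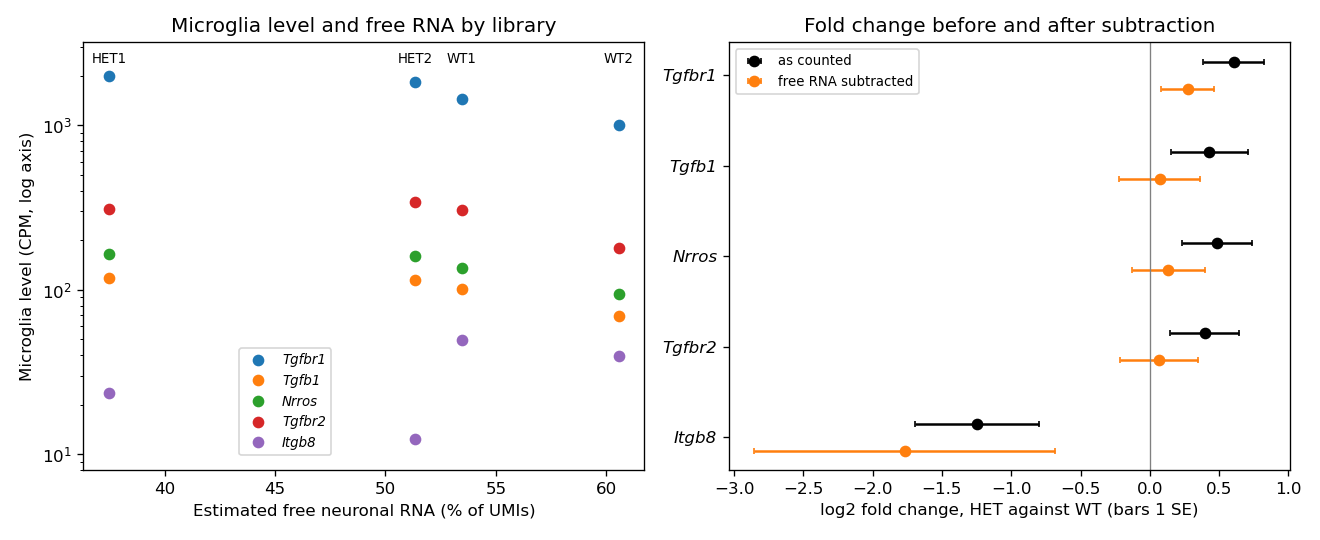
Left, microglia level (CPM, log axis) of 5 members against the estimated free neuronal RNA (percent of UMIs), 1 point per library. Right, log2 fold change with bars of 1 SE as counted (black) and with free RNA subtracted (orange). Tgfbr1 goes from 0.60 to 0.27 and Itgb8 from -1.25 to -1.77, with no Itgb8 UMIs left in HET2.

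Outside microglia, *Tgfb2* in excitatory neurons was at 7.10 and 7.77 CPM for WT, and at 5.11 and 5.02 CPM for HET, without overlap, a log2 fold change of -0.49 (SE 0.19, edgeR unadjusted p = 0.031, adjusted p above 0.99). It was the only one of 10 members without overlap in that class, where 19.1% of all genes were lower without overlap and 26% had none in either direction. Over the 33 neuron clusters where *Tgfb2* could be tested, excitatory or not, its median log2 fold change was -0.11 (range -1.87 to 0.79). The make-up of the class by cluster was not held equal between genotypes, and its part in the class value was not tested. In oligodendrocytes *Tgfbr3* was at 30.2 and 26.7 CPM for WT, and at 15.2 and 16.7 CPM for HET, a log2 fold change of -0.76 (SE 0.29, edgeR unadjusted p = 0.017, adjusted p = 0.68). *Tgfbr2* was at 9.24 and 5.29 CPM in the WT and 0.61 and 2.79 CPM in the HET libraries (38 UMIs in all), and *Nrros* at 2.52 and 3.45 against 0 and 0.93 CPM (19 UMIs). With these, 3 of 9 members were lower there without overlap, beside 21.9% of all genes (35.6% in either direction). The free-RNA estimate in oligodendrocytes was 44.6% and 49.1% for WT and 35.3% and 38.1% for HET, smaller in both HET libraries. With it subtracted, the log2 fold change was -1.71 (SE 0.55) for *Tgfbr3* and -3.41 (SE 1.55) for *Tgfbr2*, and *Nrros* gave no value. The subtraction left no *Tgfbr2* UMIs in HET1, which had 1, so the size of the *Tgfbr2* value is not read. In endothelial cells *Nrros* and *Tgfbr2* were higher (22.1% of genes) and *Itgb8* and *Tgfbr3* lower (20% of genes) without overlap, 4 of 9 members beside 42% of genes, and in inhibitory neurons 0 of 10 members were separated, beside 27.4% of genes. The endothelial free-RNA estimate was 30.5% and 34.4% for WT and 18.6% and 21.8% for HET. With it subtracted, *Nrros*, which had 19 UMIs, was at 1.33, *Tgfbr2* at 0.057 and *Tgfbr3* at -0.42, and *Itgb8* gave no value.

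*Itgb8* in excitatory neurons was at 47.0 and 22.0 CPM for WT, and at 14.9 and 35.9 CPM for HET. WT1 and HET2 were high and WT2 and HET1 were low, so the genotypes overlapped. *Smad3* and *Tgfbr1* had the opposite order in these neurons, with WT2 and HET1 high.

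In the neuron clusters 1 of 142 member tests with enough detection was called, beside 0.831% of all tests. Of all 283 member tests, whatever the detection, 18 had an unadjusted p under 0.05, beside 3.46% of all tests, and 0 had an adjusted p under 0.05, beside 0.0137% (edgeR). *Itgav* in N10 was at 84.9 and 113 CPM for WT, and at 174 and 118 CPM for HET, a log2 fold change of 0.68 (SE 0.21, edgeR unadjusted p = 0.0067, adjusted p = 0.56). In N10 3.05% of genes were called. The genotypes did not overlap, by a narrow margin (113 against 118 CPM), and without HET1 the fold change was 0.34 and no longer called.

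Of 32 other listed genes of the pathway, 24 could be tested in microglia, and 1 of the 13 with enough detection was called higher and none lower, beside 1.47% of all genes called higher. This was *Smad2*, which encodes the partner of SMAD3, at 74.4 and 76.6 CPM for WT, and at 132 and 130 CPM for HET (log2 fold change 0.76, SE 0.26, edgeR unadjusted p = 0.0084, adjusted p = 0.37). Its fold change stayed between 0.74 and 0.78 with any 1 library left out, but the call was lost each time, and also by DESeq2. Without overlap, 8 listed genes were higher (21.7% of all genes) and 5 lower (17.7%) in HET microglia, and the median log2 fold change of the 24 was 0.13, beside -0.0055 over all genes. *Itgb5* was at 516, 466, 624 and 739 CPM in WT1, WT2, HET1 and HET2, higher in both HET libraries but not called. No listed pathway gene was called in the other 4 classes.

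By class, *Itgb5*, an integrin subunit that pairs with the product of *Itgav*, had a mean of 586 CPM in microglia and under 10 CPM in the other 4 classes. The endothelial coreceptor *Eng* and receptor *Acvrl1* had means of 448 and 292 CPM in endothelial cells. The inhibitor *Ldlrad4* had 1324 CPM in microglia, and the inhibitor *Smad7* had 225 CPM in oligodendrocytes. Neither was limited to that class. By TMM-scaled means, *Ldlrad4* was at 483 CPM (WT) and 522 CPM (HET) in excitatory neurons. *Smad7* was at 166 and 196 CPM in endothelial cells and at 134 and 118 CPM in microglia. The target gene *Id1* had 1298 CPM in endothelial cells.

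Genes known to depend on TGF-beta in microglia were listed as a readout, and none of them took part in the class rule. All 12 had a positive log2 fold change in HET microglia, with a median of 0.40, beside -0.0055 over all genes, and 6 were higher without overlap, beside 21.7% of all genes. *P2ry13*, a purinergic receptor, was the only one called, beside 1.47% of all genes called higher, at 59.5 and 60.9 CPM for WT, and at 121 and 93.2 CPM for HET (log2 fold change 0.82, SE 0.28, edgeR unadjusted p = 0.0099, adjusted p = 0.37). This call was lost without WT1, WT2 or HET1, by DESeq2 and with free RNA subtracted, where the fold change was 0.44. *P2ry12*, at 932 and 594 CPM for WT, and at 907 and 851 CPM for HET, overlapped between genotypes. The median was 0.10 with free RNA subtracted, 0.097 without WT2 and 0.82 without WT1. Not all of these genes are microglia-high. By TMM-scaled means, *Gas6* was at 133 CPM (WT) and 68.7 CPM (HET) in endothelial cells, and at 65.6 and 86.0 CPM in microglia. The part of free RNA in the shift of the list was not tested beyond that subtraction.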

How the data were processed

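Nuclei of 4 mouse brains (2 WT, 2 *Csf1r*+/-) were profiled by the authors with 10x Chromium 3′ chemistry. The deposited files hold raw UMI counts per gene and nucleus, made by the authors with Cell Ranger 5.0.0 (file headers) on mm10 (submitters' processing notes), without normalization, and total 89436507 to 112226479 UMIs per library. Deposited gene and barcode lists were used as identifiers only. The 10 members and the lists were chosen with earlier results of these data known.

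A glial or vascular class needed at least 5 of its markers and 2 times the marker share of any other class; neurons needed 4 pan-neuronal markers and 3 of their type, with the same ratio. This rule was set after marker counts were seen. Nuclei with at least 5 markers of a glial or vascular class were left out as mixed if they missed this ratio or also met a neuron rule. This served as the treatment of doublets in the classes. Neurons and unclassed nuclei were clustered with scanpy 1.11.5 (3000 variable genes without the members, the lists and *Csf1r*, standardised per library, 30 components, 20 neighbours, Leiden resolution 1). Clusters were named only from fixed markers.

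The counts of each class were added up within a library and compared with edgeR 4.0.16 (TMM, quasi-likelihood, two-sided, at least 10 UMIs) under R 4.3.3, with Benjamini-Hochberg adjustment over all genes tested. The fits were run on simulated counts with 200 changed genes. In microglia 84% of these passed an unadjusted edgeR p under 0.01, beside 0.81% of the unchanged genes. The simulated spread between libraries was fixed and not estimated from them, so this outcome need not hold for the data here. Alternatives included DESeq2 1.42.0, the likelihood-ratio test of the study, other scaling and filters, Scrublet, subtraction of free RNA (the library profile scaled by the median pan-neuronal level), a replicate block and each library left out. Deviations of same-numbered libraries from their genotype had r from -0.015 to 0.146. With 2 libraries per genotype this cannot exclude shared preparation. Numbers were not used to pair samples in the main fits. Named genes were all members, list genes that were called or had the highest levels, and the genes most like each member. Gene positions are from GENCODE M21. Poisson intervals cover counting error only. Where estimated free RNA exceeded the count of a gene in a library, the subtraction left no UMIs. The SE of a genotype fold change is its size divided by the square root of the edgeR test statistic.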

Additional observations from a re-analysis of the deposited data

Results flagged for a closer look

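For 2 members, the HET libraries did not overlap the WT libraries, in opposite directions in different classes. Separation in either direction was seen for 39.3% of all genes in microglia, 42% in endothelial cells and 35.6% in oligodendrocytes. The share of all genes with such opposite directions was not counted. *Tgfbr2* was higher in both HET libraries in microglia (log2 fold change 0.39) and endothelial cells (0.26), and lower in both in oligodendrocytes (-2.05). *Nrros* was higher in both HET libraries in microglia (0.49) and endothelial cells (1.31), and lower in both in oligodendrocytes (-2.84). The difference between classes was not tested. The oligodendrocyte values rest on 38 UMIs of *Tgfbr2* and 19 of *Nrros* over 4 libraries. The endothelial value of *Nrros* rests on 19 UMIs. With free RNA subtracted, the microglia values were 0.066 for *Tgfbr2* and 0.13 for *Nrros*, and the endothelial value of *Tgfbr2* was 0.057.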

How the results depend on the processing

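With 2 libraries per genotype, single libraries set many values. A fit without 1 library leaves 1 library in that genotype, so its number of calls is not read as a result about the members. Calls over all genes also rose without WT2, from 28 to 177 in excitatory and from 28 to 224 in inhibitory neurons. For the neuron clusters, the share of all tests called is given for the main fit only. Leaving out each in turn gave 0 to 2 member calls in the classes (main 0), 0 to 1 pathway calls (main 1), 584 to 1092 calls over all genes (main 584), 1 to 14 member calls in neuron clusters (main 1; 14 without WT2, 11 without HET2) and a median of 0.097 to 0.82 for the microglia readout list. Member calls in the classes numbered 1 with library totals alone, 1 with no minimum count and 1 with at least 1000 UMIs per nucleus, *Tgfbr1* in microglia each time. Pathway calls numbered 3 by the likelihood-ratio test, 3 with the replicate block, and 0 by DESeq2, with at least 1000 UMIs, with 1 more marker required and without high Scrublet scores. Calls over all genes numbered 235 by DESeq2, 1035 with no minimum count and 198 with free RNA subtracted. The readout median was 0.22 without high Scrublet scores and 0.10 with free RNA subtracted. Neuron-cluster member calls numbered 2 by the likelihood-ratio test and 0 by DESeq2, library totals and resolution 0.5. The replicate block gave 0 member calls in the classes and 841 over all genes. The number of members separated from their next class stayed between 5 and 9 under the alternatives run. The cause of these shifts was not tested.

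Sign changes concerned member values that were not called. *Itgav* was at -0.20 in microglia and -0.079 in oligodendrocytes with free RNA subtracted, and *Smad3* in oligodendrocytes at 0.21. *Tgfb2* in oligodendrocytes was at -0.041 with library totals, -0.14 with 1 more marker and -0.35 without high Scrublet scores. *Smad3* in oligodendrocytes was at 0.034 by DESeq2, 0.0053 with RLE, 0.050 with the replicate block, 0.081 with 1 more marker and 0.30 without high Scrublet scores. *Tgfbr1* in endothelial cells was at 0.11 with at least 1000 UMIs and 0.25 without high Scrublet scores. *Tgfb3* in excitatory neurons was at 0.0078 by DESeq2, 0.0078 with RLE and 0.11 with 1 more marker. *Itgav* in excitatory neurons was at -0.048 with library totals, -0.026 with the detection filter, -0.0073 with no minimum count and -0.0071 without high Scrublet scores. In inhibitory neurons, 1 more marker put *Tgfb2* at 0.13 and *Itgb8* at -0.17, the replicate block put *Smad3* at 0.0062, and *Tgfb3* was at 0.0071 by DESeq2, 0.0039 with RLE, 0.0033 with library totals, 0.0016 with the replicate block and 0.017 without high Scrublet scores. The *Itgav* difference between microglia and oligodendrocytes was -0.0077 without high Scrublet scores.

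Leaving out single libraries also turned signs, over these ranges. In microglia *Smad3* ran from -0.36 to 0.086. In oligodendrocytes *Tgfb2* ran from -0.24 to 0.87, *Tgfb3* from -0.52 to 0.62, *Smad3* from -0.33 to 0.32 and *Itgav* from -0.17 to 0.33. In endothelial cells *Tgfb1* ran from -0.44 to 1.27, *Tgfbr1* from -0.72 to 0.28, *Smad3* from -0.98 to 0.015 and *Itgav* from -0.081 to 0.39. In excitatory neurons *Tgfb1* ran from -0.78 to 0.36, *Tgfb3* from -0.16 to 0.14, *Tgfbr1* from -0.35 to 0.90, *Tgfbr2* from -0.34 to 0.078, *Tgfbr3* from -0.19 to 0.090, *Smad3* from -0.065 to 0.73, *Nrros* from -0.30 to 0.12, *Itgav* from -0.24 to 0.27 and *Itgb8* from -1.17 to 0.32. In inhibitory neurons *Tgfb2* ran from -0.11 to 0.065, *Tgfb3* from -0.16 to 0.22, *Tgfbr1* from -0.13 to 0.29, *Tgfbr2* from -0.55 to 0.15, *Smad3* from -0.29 to 0.32, *Nrros* from -0.41 to 0.055, *Itgav* from -0.081 to 0.33 and *Itgb8* from -0.13 to 0.17.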
